A study of Homo sapiens with 4 samples.

Results

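AMD1 and 9 other genes of polyamine metabolism (ODC1, SRM, SMS, SAT1, SMOX, PAOX, OAZ1, OAZ2 and AZIN1) were followed in K562 cells after treatment with AC-1041. All 10 genes had 1 probe each among the 14297 gene probes of the array, and all 10 were among the 8852 probes tested. The probes tested had passed a filter on dim probes and had enough unmarked spots to be fitted. The members were found by gene name. AMD1 was selected on its ratio of treated to control cells, which was among the 5 largest falls of genes well above background in both channels of every array with no marked spot, and the others were added as genes of the same pathway. The ratio of AMD1 is therefore given as a description, with no test.

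K562 is a human erythroleukemia cell line, and AC-1041 is a lipid droplet-binding thalidomide analog. Treated K562 cells had received AC-1041 for 4 h. Control K562 cells of the same time point are called untreated in the sample labels and DMSO-treated in the study's methods. The dose is not in the labels but is stated in those methods. Each of 4 two-color Agilent arrays compared both RNAs, with treated RNA labeled by Cy5 on arrays 1 and 2 and by Cy3 on arrays 3 and 4 and gave 1 log2 ratio of treated to control cells per probe, which is below 0 where the treated signal was lower.

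The polyamines putrescine, spermidine and spermine are small positively charged molecules that bind nucleic acids and are needed for growth. ODC1 makes putrescine from ornithine, AMD1 decarboxylates S-adenosylmethionine to supply the aminopropyl groups, and the synthases SRM and SMS use these groups to build spermidine and spermine. SAT1, SMOX and PAOX run the way back, while antizymes (OAZ1, OAZ2) send ODC1 to the proteasome and the antizyme inhibitor AZIN1 counters them.

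The promoters of AMD1, ODC1 and SRM are shown first. AMD1 is the gene selected, and ODC1 and SRM are known targets of MYC, a transcription factor that binds the E-box CACGTG. A link between these promoters and the ratios was not tested. The bases lie upstream of the most downstream start listed for each gene in RefSeq (GRCh38.p14), read 5′ to 3′ in the direction of the gene. Capitals mark CACGTG and GGGCGG, a GC box, on either strand (CCGCCC on the other one).
AMD1, chr6:110874665-110874784, plus strand, the 120 bases before the start: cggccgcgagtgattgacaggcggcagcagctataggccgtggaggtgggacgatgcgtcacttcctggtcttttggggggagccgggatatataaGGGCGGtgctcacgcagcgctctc
ODC1, chr2:10448013-10448132, minus strand, the 120 bases before the start: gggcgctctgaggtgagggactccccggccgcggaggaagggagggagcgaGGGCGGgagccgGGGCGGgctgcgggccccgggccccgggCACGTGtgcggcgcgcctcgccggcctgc
SRM, chr1:11060149-11060268, minus strand, from 250 to 131 bases before the start: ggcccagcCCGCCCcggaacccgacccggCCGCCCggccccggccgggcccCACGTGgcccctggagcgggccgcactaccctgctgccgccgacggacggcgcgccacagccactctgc
Within 250 bases before a start, CACGTG began 29 bases before the start shown for ODC1, but was not found before its other listed start, and 199 bases before that of SRM. It was not found in those windows for any of the 3 listed starts of AMD1, nor for OAZ1, OAZ2, SAT1 or SMS, and 6.34% of all 35116 RefSeq promoter windows of this length held it. GGGCGG began 24 bases before the start of AMD1, directly after the run tatataa, and was present in 42.6% of all windows. TATAAA, the canonical spelling of the TATA box, was present in 10.7% of all windows. TGATGNAA, a spelling of the site bound by ATF4-containing dimers under amino acid and ER stress, was present in 3.14%. These exact spellings were not found in the windows of the 7 members with a RefSeq promoter entry. Other spellings of the TATA box were not searched for. No lack of a TATA box is therefore read for AMD1, whose window holds the run tatataa. The entries of AZIN1, SMOX and PAOX were missing. A match or its lack in these windows describes their letters only.

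The arrays differed in quality with the dye orientation. The SD of the negative controls on array 1 was 227 for the Cy5 signal and 233 for Cy3, and on array 2 it was 308 and 270. On array 3 these SDs were 35.8 in both dyes, and on array 4 they were 40.2 and 27.1. Over all probes the ratios correlated at 0.81 between arrays 1 and 2 and at 0.94 between arrays 3 and 4, but only at -0.29 to -0.12 between arrays of opposite orientation. Dye orientation and the wider background of arrays 1 and 2 cannot be told apart. A ratio that keeps its sign on all 4 arrays was therefore looked for in each gene, and 25.2% of the 8852 probes had the same sign on every array that measured them.

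Among the 10 genes, AMD1, SRM, SMS, SAT1 and SMOX had 1 sign on every array that measured them (5 genes), with AMD1, SRM and SMS lower and SAT1 and SMOX higher in treated cells. The other 5 changed sign between arrays. In the limma fit with a treatment and a dye term, OAZ1, AZIN1, SAT1 and SMOX were called higher after treatment (4 genes; adjusted p below 0.05), beside 24.3% of all probes tested. Another 4 were called lower (ODC1, OAZ2, SMS and SRM), beside 13% of all probes, PAOX was not called, and AMD1 is left out of these calls. Over the 10 genes the fitted log2 ratio had a median of -0.14, against 0.02 over all tested probes. AMD1 was chosen on this contrast, so nothing is read from these shares. The fitted ratio gives both dye orientations the same weight. Its standard error (SE) and p rest on how arrays of 1 orientation differ among themselves, moderated by limma towards the spread of all probes. An SD is over all arrays measured. For genes without array 1, such as ODC1, OAZ1 and SMS, array 2 is the only array with treated RNA in Cy5. Before moderation, the SE and p of such genes rest on arrays 3 and 4 alone. The methods name quadruplicate samples and a dye swap, but neither they nor the labels say which sample or culture went on which array, so the p-values measure the spread between these arrays, which may be technical.

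**Figure D1:**
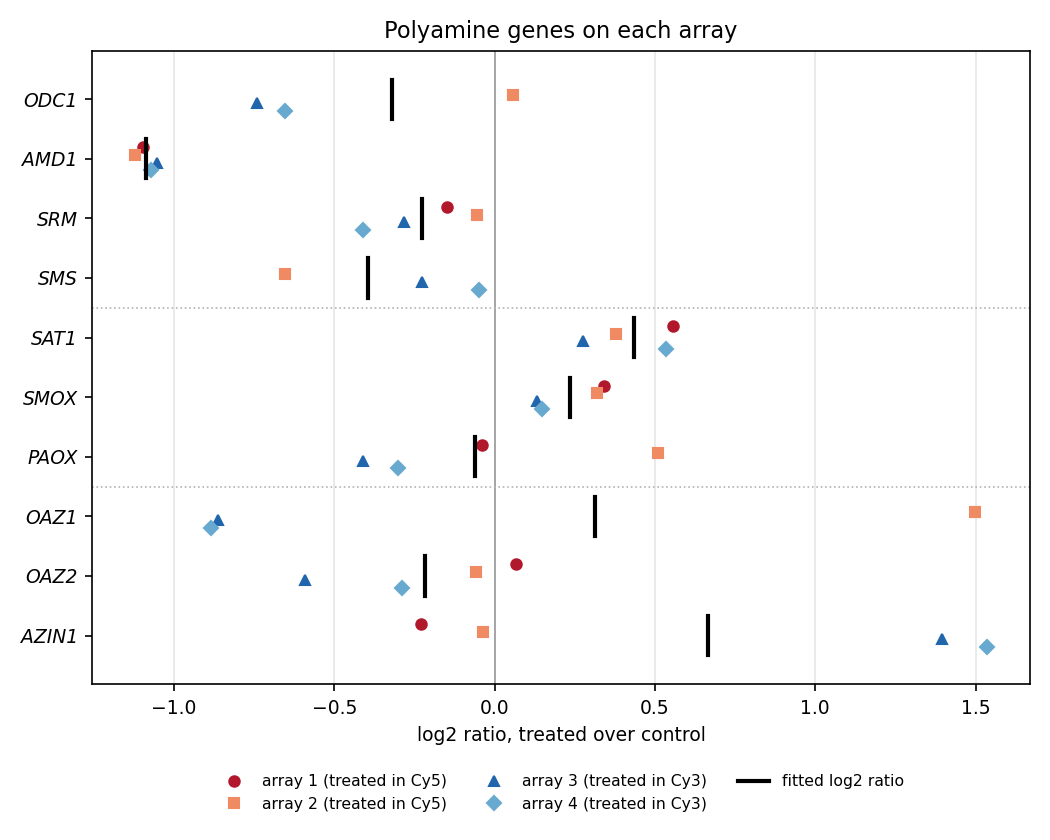
Log2 ratio of treated to control cells (x axis) for the 10 polyamine genes (rows: synthesis, breakdown and regulators) on each of the 4 arrays (points, by array and dye) with the ratio fitted by limma (black bar). The 4 points of AMD1 lie between -1.12 and -1.05, while those of AZIN1 run from -0.23 to 1.54; ODC1, OAZ1 and SMS have no point for array 1.

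AMD1, S-adenosylmethionine decarboxylase, was lower in treated cells by nearly the same amount on all 4 arrays. The AMD1 probe covers bases 111321394 to 111321453 of chromosome 6 (hg18). The normalized log2 intensity of AMD1 in treated cells was 12.48, 12.73, 12.67 and 12.76 on arrays 1 to 4. In control cells it was 13.58, 13.85, 13.72 and 13.83. The highest treated value lay below the lowest control value, so the groups did not overlap, which was true of 9.74% of all tested probes. The log2 ratio of AMD1 was -1.10, -1.12, -1.05 and -1.07, with a mean of -1.09 ± 0.03 (SD, n = 4 arrays) and an SE of 0.063. This is a 2.12-fold lower signal in treated cells. In bulk RNA, less AMD1 RNA per cell and fewer cells with AMD1 RNA cannot be told apart.

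The spread of AMD1 over the arrays was small for this data set. Among 4833 probes with both channels well above background and no marked spot on any array, 531 were lower in treated cells on all 4 arrays, 2 were at -1 or below on all 4, and AMD1 was 1 of these 2. Only 19 of the 4833 probes had an SD at or below that of AMD1, and its mean ratio was the fourth lowest. The difference between the orientations (treated RNA in Cy5 minus treated RNA in Cy3) was -0.05 for AMD1. By fitted log2 ratio AMD1 stood behind SNHG8 (-1.30), GFI1B (-1.16) and LOC442517 (-1.12). NFE2 (-1.31), with a marked spot on array 1, was not among the probes ranked. At the edge of the choice of 5 genes, LMO2 lay just inside and SLC40A1 just outside, both at -1.03 when rounded. Since AMD1 was chosen on this ratio, its rank only describes it.

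The probes with the ratios most like those of AMD1, by the Euclidean distance between the 4 log2 ratios and among 4832 candidates, were LOC442517 at a distance of 0.50, SLC40A1 at 0.54, LMO2 at 0.57, CBFA2T3 at 0.59 and BMX at 0.61. SLC40A1 encodes the iron exporter ferroportin, LMO2 and CBFA2T3 are transcription cofactors of blood cells, and BMX is a cytoplasmic tyrosine kinase. The log2 ratio of SLC40A1 was -1.09, -1.44, -0.63 and -0.94 on arrays 1 to 4. That of LMO2 was -1.06, -1.53, -0.76 and -0.79, and that of CBFA2T3 was -0.59, -0.88, -0.87 and -1.07. All 5 were lower on every array, but with an SD of 0.20 to 0.36 over the arrays against 0.03 for AMD1. 

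**Figure D2:**
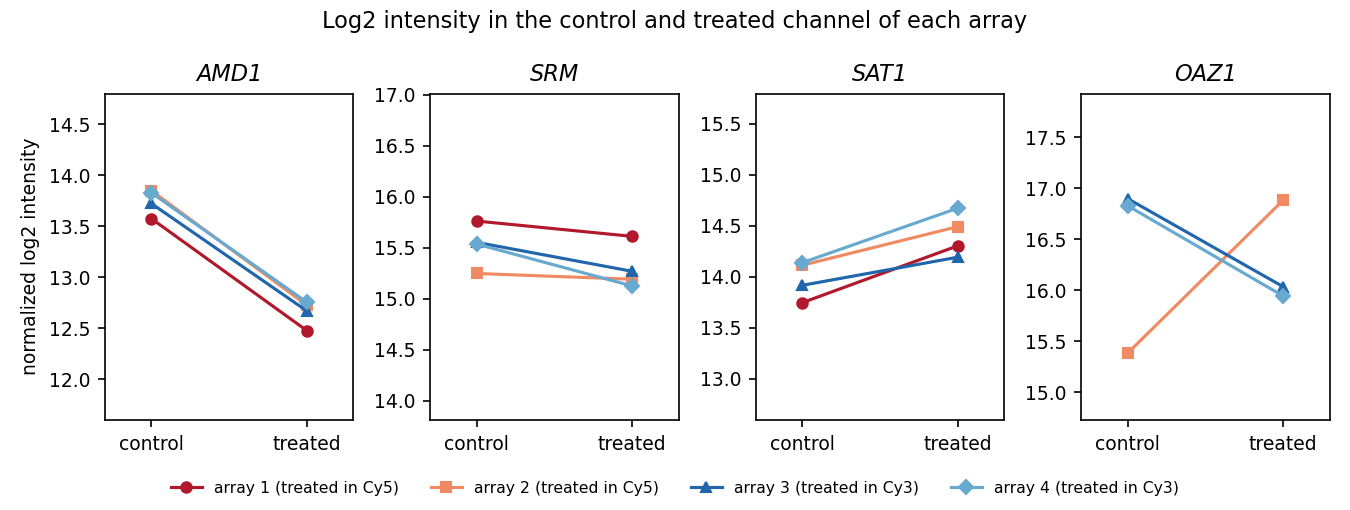
Normalized log2 intensity (y axis, the same span but another start in each panel) of AMD1, SRM, SAT1 and OAZ1 in control and treated cells, with a line joining both channels of an array. For AMD1 the treated values (12.48 to 12.76) lie below all control values (13.58 to 13.85), while for SAT1 the treated values (14.19 to 14.67) lie above all control values (13.75 to 14.14).

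ODC1, ornithine decarboxylase, did not share this behavior. Its probe covers bases 10498239 to 10498298 of chromosome 2 (hg18), and gave a log2 ratio of 0.06 on array 2, -0.74 on array 3 and -0.66 on array 4. Its spot on array 1 was marked as an outlier and left out. With treated RNA in Cy5 there was thus almost no difference, and with treated RNA in Cy3 ODC1 was lower in treated cells. The fitted log2 ratio, without array 1, was -0.32 ± 0.084 (SE, n = 3 arrays), an adjusted p of 0.0211 by limma over all probes tested. The difference between orientations was 0.75 on the log2 scale (adjusted p = 0.00662 for the dye term), larger than the treatment ratio itself.

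The synthases SRM and SMS, which add the aminopropyl groups, were lower in treated cells by less than AMD1. SRM is spermidine synthase, and its probe maps to chromosome 1 of hg18 between 11038569 and 11038712. The log2 ratio of SRM was -0.15, -0.06, -0.28 and -0.41 on arrays 1 to 4. Its fitted log2 ratio was -0.23 ± 0.066 (SE, n = 4 arrays; SD 0.15), 1.17-fold lower, at an adjusted p of 0.0285 by limma. SRM was lower on 4 of 4 arrays, but the intensities of treated (15.13 to 15.61) and control cells (15.25 to 15.76) overlapped. Without array 3 the adjusted p of SRM was 0.106 and without array 4 it was 0.23. It was 0.0798 with the processed signals of Feature Extraction, 0.0802 with the series table and 0.514 on arrays 1 and 2 alone, where the log2 ratio of SRM was -0.10.

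SMS, spermine synthase, had 1 of its spots marked, that of array 1, and was measured on 3 arrays. Its probe maps to chromosome X of hg18 between 21906108 and 21906929, a span of 822 bases, against 60 bases for most other probes. This is a span of genome coordinates and not the length of the probe. The log2 intensity in treated cells was 13.58, 13.60 and 13.65 on arrays 2 to 4. In control cells it was 14.23, 13.82 and 13.70, so that treated values lay below control values on every array measured. The log2 ratios were -0.65, -0.23 and -0.05, so the size of the difference depended on the array. The fitted log2 ratio of SMS was -0.40 ± 0.087 (SE, n = 3 arrays; adjusted p = 0.011 by limma). With the marked spot kept, its ratio on array 1 was -0.03 and its adjusted p 0.138. On arrays 3 and 4 alone the fitted ratio of SMS was -0.14, without a call (limma adjusted p = 0.178).

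On the way back from spermine and spermidine, SAT1 was higher in treated cells on 4 of 4 arrays. SAT1 acetylates spermidine and spermine and is the rate-limiting enzyme of their breakdown. Its log2 intensity in treated cells was 14.30, 14.49, 14.19 and 14.67 on arrays 1 to 4. In control cells the SAT1 intensity was 13.75, 14.11, 13.92 and 14.14, with no overlap between the groups. The log2 ratio of SAT1 was 0.56, 0.38, 0.28 and 0.53, a difference of 0.06 between the orientations (adjusted p = 0.733 for the dye term). The fitted ratio was 0.44 ± 0.074 (SE, n = 4 arrays; SD 0.13), 1.35-fold higher in treated cells, at an adjusted p of 0.00242 by limma. SAT1 (probe on chromosome X of hg18, 23713387 to 23713446) passed the threshold in 14 of 15 other settings, the exception being the fit without a dye term (adjusted p = 0.165).

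SMOX, which oxidizes spermine back to spermidine, was higher in treated cells on 4 of 4 arrays. Its log2 ratios were 0.34, 0.32, 0.13 and 0.15, and the fitted ratio was 0.24 ± 0.063 (SE, n = 4 arrays), 1.18-fold higher, at a limma adjusted p of 0.0202. SMOX (probe on chromosome 20 of hg18, 4116300 to 4116359) was the only member not well above background in every channel, reaching it in the control channel of 3 arrays. Its call was lost without array 3 (adjusted p = 0.122) or array 4 (0.156). In 1 orientation alone SMOX was not called either, on arrays 1 and 2 (0.33, limma adjusted p = 0.0588) or on arrays 3 and 4 (0.14, 0.166). PAOX oxidizes the acetylated polyamines that SAT1 makes. The PAOX probe (chromosome 10 of hg18, 135055067 to 135055126) had log2 ratios of -0.04, 0.51, -0.41 and -0.30. These have no common sign, and the fitted ratio of -0.06 ± 0.093 (SE, n = 4 arrays) was not called (limma adjusted p = 0.64). The sign of PAOX turned without array 1 (0.08).

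Of the 10 genes, the ODC1 regulators OAZ1 and AZIN1 differed most between the dye orientations. OAZ1, the main antizyme, had log2 ratios of 1.50 on array 2, -0.86 on array 3 and -0.88 on array 4, with its spot on array 1 marked and left out. OAZ1 was thus higher in treated cells in one orientation and lower in the other, a difference of 2.37 (adjusted p = 3.57e-05 for the dye term). Its fitted ratio of 0.31 ± 0.083 (SE, n = 3 arrays) passed the threshold (limma adjusted p = 0.0224), although its mean over the 3 arrays was -0.08 ± 1.37 (SD). With the marked spot kept (0.71 on array 1) the fitted ratio was 0.14 (adjusted p = 0.414), with median centring it was 0.13 (0.38), and on arrays 3 and 4 alone it was -0.87. No direction of OAZ1 is therefore given. Its probe covers bases 2224229 to 2224288 of chromosome 19 (hg18).

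AZIN1, the antizyme inhibitor, showed the opposite pattern. Its probe, listed on chromosome 8 of hg18 from 103909551 to 103909610, had log2 ratios of -0.23 and -0.04 on arrays 1 and 2 and of 1.40 and 1.54 on arrays 3 and 4. The log2 intensity of AZIN1 in treated cells was 14.17, 14.82, 15.44 and 15.59. In control cells it was 14.40, 14.86, 14.05 and 14.05, so the groups overlapped through the first pair of arrays. The fitted ratio was 0.67 ± 0.070 (SE, n = 4 arrays; SD 0.93), at a limma adjusted p of 0.000227. The difference between orientations was -1.60 (adjusted p = 5.22e-05), and on arrays 1 and 2 alone AZIN1 was not higher (-0.13, adjusted p = 0.419). OAZ2, the second antizyme (chromosome 15 of hg18, 62767117 to 62767176), had log2 ratios of 0.07, -0.06, -0.59 and -0.29. Its fitted ratio of -0.22 ± 0.075 (SE, n = 4 arrays) had an adjusted p of 0.0498 by limma. Leaving out array 2, 3 or 4 ended the OAZ2 call, at adjusted p-values of 0.0905, 0.337 and 0.0915. So did median centring (-0.14, limma adjusted p = 0.216), keeping marked spots (0.0599) and testing without a filter on dim probes (0.0564).

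The dye term passed for 6 of the 10 genes (ODC1, OAZ1, OAZ2, AZIN1, SMS and PAOX), beside 58.2% of all probes tested. Of the others, AMD1 and SAT1 had nearly the same ratio in both orientations, and SRM and SMOX differed by 0.24 and 0.19 between them (adjusted p = 0.143 and 0.222). In the fit without a dye term, whose spread includes the difference between orientations, none of the 9 members chosen by pathway was past the threshold.

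**Figure D3:**
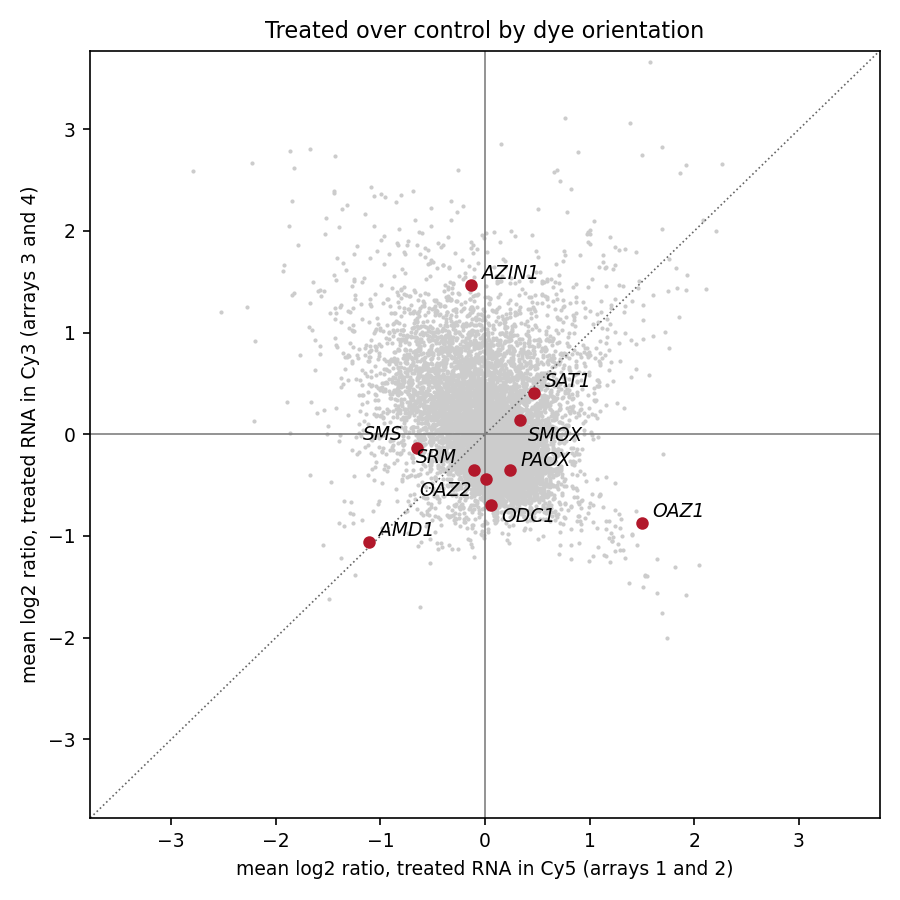
Mean log2 ratio of treated to control cells with the treated RNA in Cy5 (x axis, arrays 1 and 2, or array 2 alone where array 1 was marked, as for OAZ1, ODC1 and SMS) and in Cy3 (y axis, arrays 3 and 4) for all tested probes (gray) and the 10 polyamine genes (red), with a dotted line of equal values. AMD1 (-1.11 and -1.06) and SAT1 (0.47 and 0.40) lie near the line, whereas OAZ1 (1.50 and -0.87) and AZIN1 (-0.13 and 1.47) lie far from it.

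The genes around the polyamine pathway were taken from 6 lists (other polyamine enzymes and regulators, transport, hypusine formation, arginine and ornithine supply, the methionine cycle and methylthioadenosine salvage). Of their 48 genes, 43 had a probe and 27 could be tested. Of these 27 genes, 5 were higher (18.5%), 4 were lower (14.8%) and 18 were not called, with a median log2 ratio of -0.02. These shares lie near those of all probes given above, so the lists are described by their single genes. Without the dye term none of the 9 calls was kept, with limma adjusted p-values from 0.0738 for ARG2 to 0.818 for APIP.

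In the methionine cycle, which supplies the substrate of AMD1, 7 genes were tested, 1 was lower and 1 higher. MAT2A, the catalytic subunit of the S-adenosylmethionine synthetase of most tissues, had a log2 ratio of -1.02, -0.54 and -0.84 on arrays 2 to 4, its spot on array 1 being marked. Its fitted log2 ratio was -0.85 ± 0.095 (SE, n = 3 arrays), 1.81-fold lower in treated cells, at an adjusted p of 0.000495 by limma. MAT2B, the regulatory subunit, had log2 ratios of 0.11, 0.19, 0.20 and 0.56 and a fitted ratio of 0.27 ± 0.078 (SE, n = 4 arrays; adjusted p = 0.0275 by limma). Without array 4 it was 0.18 (adjusted p = 0.269), and the call was also lost with the processed signals (0.0813), with the series table (0.0826), with marked spots kept (0.0531) and on arrays 1 and 2 alone (0.335). The hydrolase AHCY, with a fitted log2 ratio of 0.05 (limma adjusted p = 0.616), and AHCYL1 (-0.09, adjusted p = 0.305) were not called, nor were MTRR and 2 further genes.

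Among genes of arginine and ornithine supply, 7 were tested, 2 were higher and 2 lower. ARG2, the mitochondrial arginase that yields ornithine, was higher on 4 of 4 arrays with log2 ratios of 0.51, 0.59, 0.72 and 0.81. Its fitted log2 ratio was 0.66 ± 0.065 (SE, n = 4 arrays; SD 0.13), 1.58-fold higher, at a limma adjusted p of 0.000177. OAT, the aminotransferase that draws ornithine away from putrescine synthesis, was lower on the 3 arrays that measured it, with log2 ratios of -0.67, -0.32 and -0.50 on arrays 2 to 4. Its fitted ratio was -0.54 ± 0.087 (SE, n = 3 arrays; adjusted p = 0.00271 by limma). SLC7A1, a transporter of cationic amino acids, was higher on the same 3 arrays (0.54, 0.20 and 0.39), with a fitted ratio of 0.42 ± 0.088 (SE, n = 3 arrays; limma adjusted p = 0.009). SLC25A15, the mitochondrial ornithine carrier, was called lower at -0.29 (limma adjusted p = 0.0298), but its log2 ratios of 0.47, 0.00, -0.77 and -0.85 had no common sign, and the call was lost without array 2 (-0.17, adjusted p = 0.084), without array 3 (0.115), without array 4 (0.192) and with median centring (-0.18, adjusted p = 0.129). ASS1, ASL and ALDH18A1 were not called.

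Of 4 tested transport genes 1 was called. SLC3A2, the heavy chain shared by several amino acid transporters, had log2 ratios of 1.57, 0.37 and 0.80 on arrays 2 to 4 and was higher on each. Its fitted log2 ratio was 1.07 ± 0.107 (SE, n = 3 arrays), 2.11-fold higher, at a limma adjusted p of 0.000306. The size of the SLC3A2 ratio depended on the dye, with a difference of 0.98 between orientations (limma adjusted p = 0.00602 for the dye term). On arrays 3 and 4 alone it was 0.58. The polyamine-exporting pumps of the lysosome and endosome, ATP13A2 (-0.18, limma adjusted p = 0.158) and ATP13A3 (-0.10, adjusted p = 0.27), and GPC1 were not called. Of the other enzymes and regulators, the antizyme OAZ3 had a fitted log2 ratio of 0.20 (limma adjusted p = 0.049), was well above background in each channel of only 2 arrays, and lost its call in 13 of 14 other settings. SAT2, a paralog of SAT1, had a fitted log2 ratio of 0.17 (limma adjusted p = 0.0795).

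Spermidine is also the source of hypusine, the modified residue of EIF5A that DHPS and DOHH form. None of the 4 genes tested here was called by limma for the treatment, and all 4 were called for the dye term. DHPS had a fitted log2 ratio of 0.14 (adjusted p = 0.15), DOHH -0.01 (0.914) and EIF5A 0.12 (0.304). The synthases SRM and SMS leave methylthioadenosine, which a salvage route returns to methionine. In that route MTAP was not well above background on any array, ENOPH1 and ADI1 were not called, and APIP was called lower (-0.23, limma adjusted p = 0.0342) with a mean log2 ratio of -0.88 on arrays 1 and 2 and of 0.42 on arrays 3 and 4. The sign of APIP thus followed the dye, and its adjusted p was 0.0898 without array 2, 0.198 without array 3 and 0.151 without array 4. The APIP call was also lost with median centring (-0.16, limma adjusted p = 0.153), processed signals (0.0521) and the series table (0.0508).

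**Figure D4:**
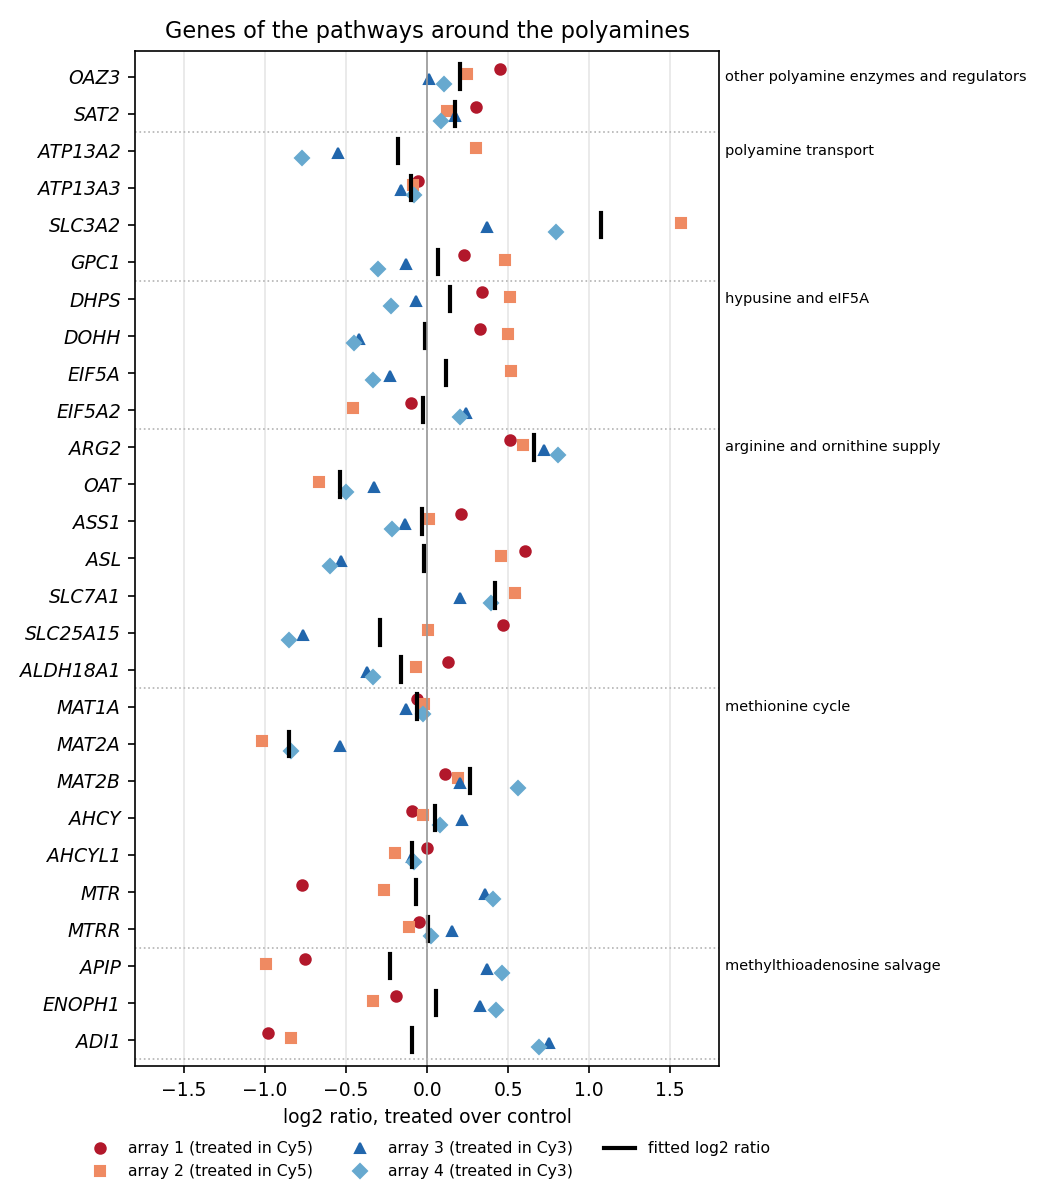
Log2 ratio of treated to control cells (x axis) for the 27 tested genes of the 6 lists around the polyamine pathway, on each array (points) and as fitted by limma (black bars). MAT2A, OAT, ARG2, SLC7A1 and SLC3A2 keep 1 sign on every array that measured them, while the points of APIP and ADI1 fall on both sides of 0 by dye orientation.

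MYC drives ODC1 in many cells, and the MYC network was therefore set beside the members. The MYC probe had log2 ratios of 0.98, 0.67, -0.93 and -0.93 on arrays 1 to 4. Its fitted log2 ratio was -0.05 ± 0.074 (SE, n = 4 arrays; limma adjusted p = 0.609), and the difference between orientations was 1.75 (adjusted p = 4.3e-05). The direction of MYC could thus not be read from these arrays. Among 7 tested genes of the network 2 passed the threshold as higher (MXI1 and MXD1), beside 24.3% of all probes tested. MXI1 had log2 ratios of 0.25, 0.46, 0.63 and 0.87 and a fitted ratio of 0.55 ± 0.074 (SE, n = 4 arrays; adjusted p = 0.000748 by limma). MXD1 was higher on 4 of 4 arrays as well (0.32, 1.28, 0.63 and 0.70), with a fitted ratio of 0.73 ± 0.134 (SE, n = 4 arrays). However, MXD1 was well above background in treated cells on 2 arrays and in control cells on 1. It thus passed the filter on dim probes only through the treated cells, where it was high, and its call is not read. Without the dye term the call of MXI1 was lost (limma adjusted p = 0.16), as it was on arrays 1 and 2 alone (0.35, adjusted p = 0.0582). MXI1 and MXD1 encode MAX partners that oppose MYC, as do MXD4 and MNT, which were not called (0.06 and -0.07 on the log2 scale, limma adjusted p = 0.553 and 0.436). MAX and MLX were not called either. MXD4 and MNT were named after their values were seen.

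The cell type on the labels was checked with markers. Of 12 erythroid genes 11 had a probe, and 10 of these were well above background in both channels of all arrays, TAL1 missing it in the control channel of 1 array. The brightest erythroid probe was that of HBZ, the embryonic zeta globin, which describes probe signals and does not rank the RNA amounts of different genes. Of 6 lymphoid genes CD79A was well above background on all arrays, and CD3G and MS4A1 on none. Of 8 epithelial and liver genes EPCAM, KRT8 and KRT19 were above it on all arrays, and CDH1, ALB, APOA1 and TTR on none.

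Some erythroid markers were called as well. Of 11 tested erythroid genes 6 were lower (GATA1, TAL1, KLF1, NFE2, GFI1B and LMO2) and 1, EPOR, was higher in treated cells, beside 13% and 24.3% of all probes tested, with a median fitted log2 ratio of -0.29. Without the dye term none of the 6 was past the threshold (limma adjusted p from 0.0621 for NFE2 to 0.551 for TAL1). GATA1, KLF1, GFI1B and LMO2 were lower on 4 of 4 arrays, and NFE2 on the 3 that measured it. TAL1 had no common sign. The median ratio of this list, globins included, was -0.04, -0.24, -0.76 and -1.13 on arrays 1 to 4. The log2 ratio of AMD1 stayed between -1.12 and -1.05. NFE2, an erythroid transcription factor, had a fitted log2 ratio of -1.31 ± 0.110 (SE, n = 3 arrays; limma adjusted p = 0.00015) and GATA1, the master regulator of the lineage, -0.56 ± 0.070 (SE, n = 4 arrays; adjusted p = 0.000541). On arrays 1 and 2 alone GATA1 was at -0.29 (limma adjusted p = 0.0892) and KLF1 at -0.26 (0.128), both without a call. GFI1B (-0.62, limma adjusted p = 0.0148) and LMO2 (-1.29, 0.00119) were called lower there. The embryonic and fetal globins HBZ, HBE1 and HBG1 were not called by limma for the treatment and differed by 1.71, 3.46 and 3.74 on the log2 scale between the dye orientations. The calls of TAL1, EPOR and the lymphoid and epithelial genes named next were lost without array 3 (adjusted p from 0.0707 to 0.135) and without array 4 (0.0946 to 0.336), and those of CD3D and EPCAM also without array 2 (0.103 and 0.0628). Of 3 tested lymphoid genes CD3D (-0.24) was called lower, and of 4 tested epithelial genes EPCAM (-0.22) and KRT19 (-0.27), all by limma. The median ratio over arrays 1 to 4 was 0.13, 0.17, -0.25 and -0.39 for the lymphoid list and -0.88, -0.46, 0.32 and 0.10 for the epithelial list, whose brightest probes were CD79A and KRT19. The part of these shifts in the ratios of the polyamine genes was not tested.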

How the data were processed

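Treated and control RNA of K562 cells was hybridized together to 4 two-color arrays. The authors scanned them and deposited Agilent Feature Extraction (9.5.1.1) output, with the mean intensity and local background intensity of each spot, without normalization. The deposited files also hold processed intensity values and their log10 ratio. The authors' series table holds the same log10 ratios, 99.9% to 100% of values lying within 0.001 once arrays 3 and 4 were turned to treated over control; all column medians were 0.

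Intensities were corrected with normexp (offset 50) and loess (span 0.3) in limma 3.58.1 under R 4.3.3. Control spots and spots marked as non-uniform or population outliers (8.08%, 2.18%, 2.33% and 1.57% of gene probes on arrays 1 to 4) had weight 0, and marked spots were dropped. Channel intensities were then scaled between arrays (Aquantile). Probes were tested if well above background on at least 2 arrays in 1 channel or the other and unmarked on more than 2 arrays. The fit had a treatment and a dye term, with Benjamini-Hochberg adjustment and a threshold of 0.05. No spot was saturated. The number of arrays limits the precision. All arrays shared 1 slide and scan date, so neither could be a block. The fit was tested on simulated data.

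RefSeq transcripts named 12002 of 14297 probes, and the others kept their name in the files. Coordinates are those of the files (hg18), whereas promoters are GRCh38.p14. Named genes were all members, called genes of the lists, up to 3 uncalled genes per list in full, and the 5 probes nearest to AMD1. Some marker genes are not reported here. The members and lists were chosen with earlier results of these data known. Alternatives were no background subtraction, processed signals, the series table, median centring, other dim-probe filters, marked spots kept, no dye term, an intensity-dependent prior, 1 orientation only, and each array left out. Python 3.11.15 and matplotlib 3.10.9 drew the figures.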

Additional observations from a re-analysis of the deposited data

How the results depend on the processing

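The log2 ratio of AMD1 was -1.01 with median centring in place of loess, and between -1.11 and -1.06 in the other settings, with -1.09 to -1.08 when arrays were left out in turn. Calls depended most on the dye term: its removal left 52 probes called higher and 4 called lower, and among the 10 members 0 were higher and 1 lower (counts of members lower include AMD1, for which no test is read). With arrays 1 and 2 alone, of 8018 probes tested 1323 were higher and 1371 lower, with 1 member higher and 1 lower. With arrays 3 and 4 alone, of 8853 probes tested 3392 were higher and 2781 lower, with 2 members higher and 6 lower. Leaving out 1 array gave 1008 to 2590 probes higher and 283 to 1469 lower, and 2 to 4 members higher and 1 to 5 lower. Without array 3 there were 1241 probes higher and 439 lower, without array 4 there were 1008 and 283, and both left 2 members higher and 1 lower. Without array 2 there were 2 members lower, beside 1261 of 8005 probes tested. The lone array of an orientation then adds nothing to the SE, which rests on the same probe's arrays of the other orientation, moderated towards all probes. This already holds in the main fit for ODC1, OAZ1, SMS, MAT2A, OAT, SLC7A1, SLC3A2 and NFE2, which lack array 1. With an array left out, these genes could be fitted only in the setting that leaves out array 1. They could not be fitted on arrays 1 and 2 alone either.

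Median centring gave 596 probes lower, and the filter for both channels on all arrays gave 1342 probes higher. The share of higher among all calls was 65.2%, but 92.9% without the dye term, 79.9% with median centring, 55.6% with the filter on both channels and 49.1% on arrays 1 and 2 alone. With marked spots kept 3 members were higher and 3 lower, beside 1941 and 1078 of 9191 probes tested. Directions turned for PAOX (0.067 with median centring, 0.23 on arrays 1 and 2, 0.076 without array 1, the other extreme with an array left out being -0.20 without array 2), OAZ1 (-0.083 without the dye term, -0.87 on arrays 3 and 4), and, on arrays 1 and 2 alone, OAZ2 (0.0049), AZIN1 (-0.13), SLC25A15 (0.24) and TAL1 (0.029). On arrays 3 and 4 alone they turned for APIP (0.42) and EPCAM (0.51). Over the single genes other than AMD1, 302 values kept direction and side of the threshold, 99 lost the call, 1 gained it (PAOX, -0.36 on arrays 3 and 4 alone, limma adjusted p = 0.00132) and 11 turned. Beyond the dye term, one-orientation and left-out-array settings, the cause of a change was not tested. No further pairing was modeled, because each array holds both groups and its ratio is already a within-array comparison. Of the called genes, SMOX, OAZ3, MXD1, TAL1 and CD3D were not well above background in every channel.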
